A study of Mus musculus with 18 samples.

Results

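Microglia sorted from the retinas of mice that lack the clock gene Bmal1 in microglia were compared with microglia sorted from control retinas. The libraries were chosen by their labels: 5 knockout and 4 control microglia libraries, 9 of the 18 in the series. All genes that passed a filter on low counts entered the comparison, which were 14835 of the 55487 in the count table. Of these, 5229 had a mean of at least 30 CPM (counts scaled to the size of the library) over the 9 libraries and are called well covered here. They made up 35.2% of the expressed genes and held 92.2% of the CPM.

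Control mice carried floxed Bmal1 alleles (Bmal1f/f), and knockout mice are written Bmal1-mg/-mg. Living cells were gated as negative for the dye DAPI, and microglia as positive for CD11b, a surface integrin that other myeloid cells also carry. The recombinase and the promoter that drives it, as well as age, strain, sex and time of day, are not given in the sources used here. The labels number the samples but name no mice, and p-values therefore reflect the spread between these samples, which may be technical.

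BMAL1, the product of the gene listed as Arntl, pairs with CLOCK and binds E-box elements in promoters. The pair drives the Per and Cry genes, whose proteins repress it, and the REV-ERB genes Nr1d1 and Nr1d2, whose proteins repress Arntl in turn. Microglia are the resident macrophages of the retina and brain. They depend on the receptor encoded by Csf1r, sense neurons through receptors such as Cx3cr1 and P2ry12, make the complement protein C1q, and take up and digest cell debris.

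The libraries held between 32277156 and 43096554 counts, so that 3 counts were worth 0.0696 to 0.0929 CPM. Control libraries had counts for 18654 to 19363 genes and knockout libraries for 17343 to 18438, without overlap (two-sided exact permutation p = 0.0159, the smallest that 4 against 5 libraries can give). In a principal component analysis of the well-covered genes, knockout 2 stood alone on the first component, at 56.9 against -9.53 to -4.31 in the other 8 libraries, and knockout 3 lay at the end of the second. Control 1 and knockout 1 expressed the X-inactivation gene Xist and no Y-linked gene, while the other 7 libraries expressed Y-linked genes. The part of these differences in the results was examined only by leaving out libraries and by entering a covariate. The covariate was the number of genes detected per library or the level of Y-linked genes. With genes detected as the covariate, 5 genes passed the test described below among all expressed genes, against 17 without it. Because genes detected did not overlap between groups, this fit cannot tell that difference apart from the genotype.

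Csf1r, Tmem119 and P2ry12, which mark microglia, were abundant in all 9 libraries. Tmem119 ran from 4972 to 6557 CPM in controls and from 5914 to 6906 CPM in knockouts. P2ry12 ran from 2400.3 to 3308 CPM in controls and from 2260 to 2872 CPM in knockouts, and Itgam, the gene of the sorted antigen CD11b, from 308 to 364 and from 289 to 382 CPM. The groups overlapped for all 3 genes, and none of the 3 passed the test. In bulk samples such as these, fewer cells of a type and less RNA per cell cannot be told apart.

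The targeted gene Arntl was weakly expressed and its groups overlapped. It had 20.7, 14.5, 9.36 and 25.5 CPM in controls 1 to 4 and 8.00, 1.97, 18.7, 23.1 and 12.8 CPM in knockouts 1 to 5. Knockouts 3, 4 and 5 lay inside the control range, and knockouts 1 and 2 below it (log2 difference -0.44, SE 0.62, edgeR adjusted p = 0.999). The count covers the whole gene on chromosome 7 (113207465 to 113314126) and the deleted exons are not named in the labels. It therefore checks the deletion in no library, and the libraries are used as labelled.

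The comparison asks which transcripts of microglia differ when these cells lack Bmal1. In the edgeR quasi-likelihood test, 17 of 14835 genes passed a Benjamini-Hochberg adjusted p of 0.05 (0.115%), 15 higher (0.101%) and 2 lower (0.0135%) in knockouts. Several of the 17 had almost no reads in a whole group, and their calls are set aside near the end of these results. Among well-covered genes 9 of 5229 passed (0.172%), 8 higher (0.153%) and 1 lower (0.0191%). When only the well-covered genes were fitted, 21 passed (0.402%), 17 higher (0.325%) and 4 lower (0.0765%). These were the same 9 and 12 others, and in all 21 no knockout library overlapped a control library. All 21 were also past the threshold by DESeq2 and in the authors' deposited table, and 10 were by limma voom. DESeq2 called 1.61% of all expressed and 2.95% of well-covered genes and voom 0.175% and 0.21%. The authors' deposited table had 76 of 12841 genes past its threshold (0.592%), 57 higher (0.444%) and 19 lower (0.148%). The precision differed between the 2 tiers of genes, with a median SE of the log2 change of 0.22 for well-covered genes and 0.63 for the others.

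**Figure D1:**
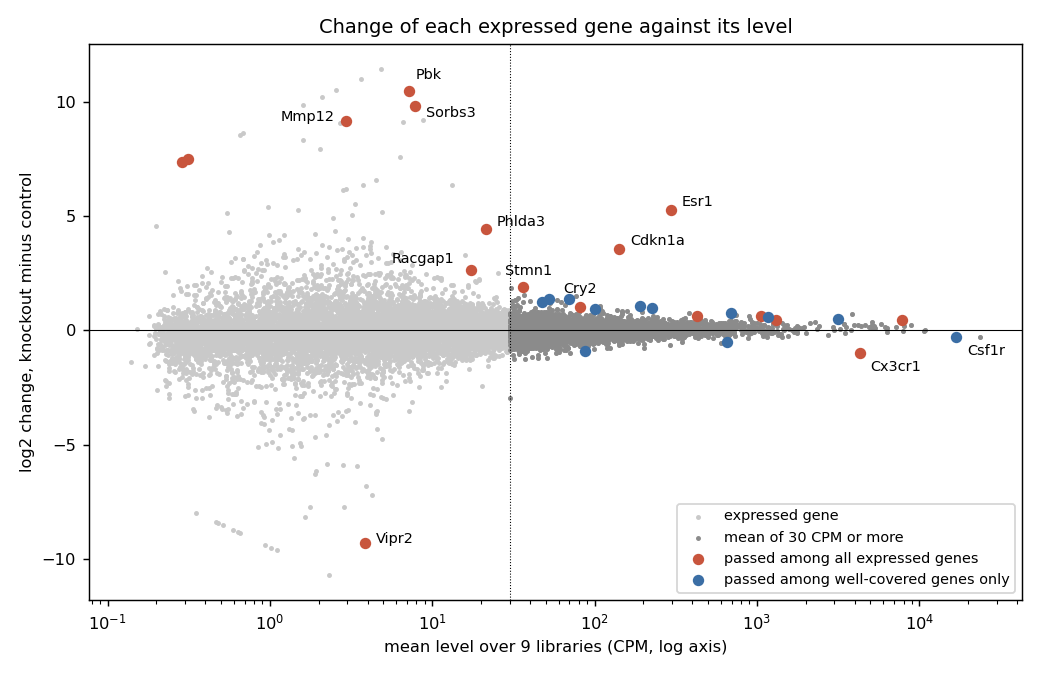
Each point is 1 of the 14835 expressed genes, with its mean level over 9 libraries on a log axis and its log2 change, knockout minus control, on the vertical axis. The dotted line marks 30 CPM. To its right most changes are small, and Esr1 and Cdkn1a stand apart above. Cx3cr1 is at -1.001, and 11 well-covered genes in all lie under -1.

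Outside the genes called, well-covered genes leaned upwards in knockouts. Of 5229, 515 were under an unadjusted p of 0.05 (9.85%), of which 385 were higher (7.36%) and 130 lower (2.49%). In 187 (3.58%) every knockout library lay above every control, and in 54 (1.03%) below. Among all expressed genes the lean was smaller: 5.76% were under that p, 3.67% higher and 2.09% lower, 1.9% lay above without overlap and 1.46% below, and 49.5% had a positive change. Most changes were small: the median absolute log2 change of the genes under that p was 0.49, and 31 well-covered genes had a log2 change over 1 and 11 under -1. The median over well-covered genes was 0.05 and 56.4% were positive. These shares are the background for the lists of genes described below.

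Esr1, which encodes estrogen receptor alpha (GRCm38 chromosome 10, 4611593 to 5005614), was the most changed well-covered gene. It had 16.6, 12.4, 15.0 and 9.31 CPM in controls against 514, 387, 640.3, 556 and 497 CPM in knockouts (log2 difference 5.28, SE 0.23, edgeR adjusted p = 2.19e-05). The lowest knockout, number 2, was still far above the highest control. Genes that estrogen receptors are known to induce or bind were mostly too weak to follow: of 16 listed, 7 passed the filter on low counts and 5 were well covered. Of these 5, 4 had positive changes with a median of 0.16, 2 were higher and 1 lower at an unadjusted p under 0.05, and none was called. The median over the 7, 0.21, was -0.02 without knockouts 2 and 3 and 0.62 with the border macrophage covariate described below. The cyclin gene Ccnd1 had 71.5 to 106 CPM in controls against 128 to 170 CPM in knockouts, and Igfbp4, which binds insulin-like growth factors, 115 to 146 and 166 to 236 CPM. The corepressor gene Nrip1 stood the other way, at 244 to 325 CPM in controls against 167 to 242 CPM in knockouts. None of the 3 overlapped between groups and none passed the test (adjusted p = 0.186, 0.203 and 0.457).

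Cx3cr1, the fractalkine receptor (chromosome 9, 119901616 to 120069879), was the only well-covered gene called lower in the test over all expressed genes. Its level was 5672, 6109, 5983 and 6029 CPM in controls against 2901, 2633, 3124, 3165 and 3040.2 CPM in knockouts, a mean of 5948 ± 192 against 2973 ± 215 CPM (SD, n = 4 and 5). Both groups were tight and far apart (log2 difference -1.001, SE 0.06, edgeR adjusted p = 0.000118). As background, tamoxifen-inducible Cre recombinases contain part of an estrogen receptor, and some in use for microglia are inserted into Cx3cr1. Which recombinase these mice carried is not given in the sources used here, a count per gene does not show which part of Esr1 the reads came from, and the part of a recombinase gene in these values was not tested.

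**Figure D2:**
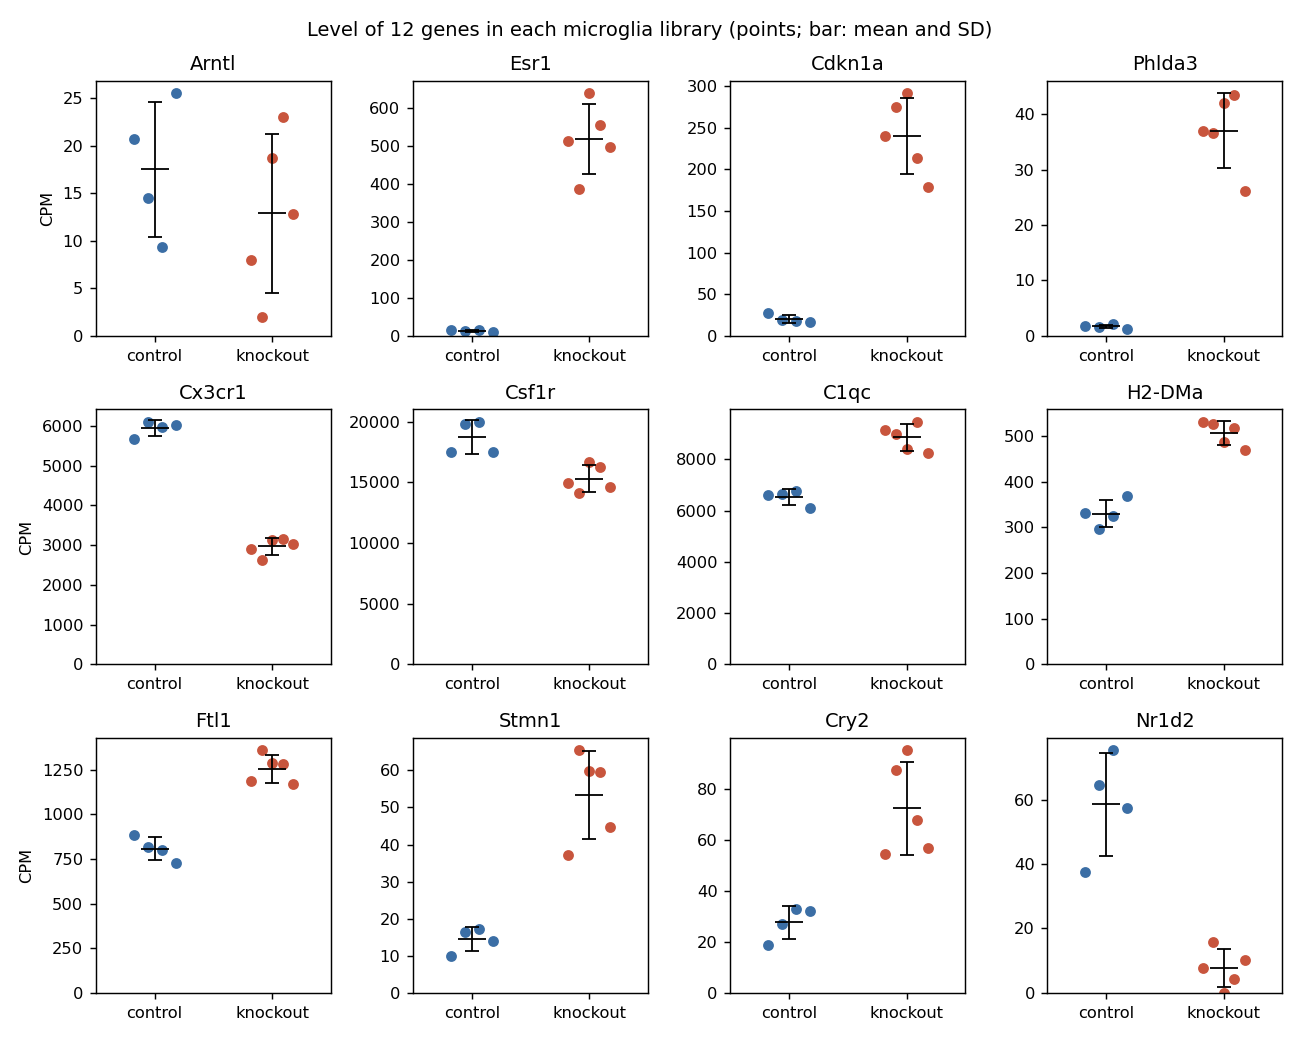
CPM of 12 genes in each library, with 4 control and 5 knockout points, and the mean and SD as bars; axes start at 0. Arntl overlaps between groups, while Esr1, Cdkn1a, Phlda3 and Cx3cr1 are separated by far more than the spread within groups, and Csf1r, C1qc and H2-DMa by less.

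Of 31 tested genes that the tumour suppressor p53 is known to switch on, 2 were called, both higher in knockouts: Phlda3 and Cdkn1a, which encodes an inhibitor of cyclin-dependent kinases (chromosome 17, 29090976 to 29100727). Cdkn1a had 27.0, 19.2, 17.5 and 16.98 CPM in controls against 240.5, 274, 291, 214 and 179 CPM in knockouts (log2 difference 3.57, SE 0.21, edgeR adjusted p = 0.000118). Phlda3, which restrains AKT at membranes (chromosome 1, 135766119 to 135769136), had 1.89, 1.55, 2.10 and 1.33 CPM in controls against 37.0, 36.7, 42.1, 43.4 and 26.1 CPM in knockouts (4.43, SE 0.29, adjusted p = 0.000226). In both genes the lowest knockout was number 5, and it remained several times above every control.

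Further p53 targets, in cell death and growth control, differed less. Bbc3, which encodes the death factor PUMA, had 29.0, 24.7, 28.2 and 24.9 CPM in controls against 48.7, 91.6, 65.7, 62.3 and 51.0 CPM in knockouts. It passed when well-covered genes were fitted alone (adjusted p = 0.0496) and not among all expressed genes (0.072). Bax, the pore-forming partner of PUMA, ran from 32.9 to 49.7 CPM in controls and from 64.4 to 90.9 CPM in knockouts (log2 difference 0.88, adjusted p = 0.13). Sulf2, a heparan sulfatase, ran from 19.9 to 45.2 and from 49.1 to 99.5 CPM (1.22, adjusted p = 0.303). Neither overlapped between groups.

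Over the 13 well-covered p53 targets of 35 listed, 10 had positive changes with a median of 0.25, 5 did not overlap, and 6 were higher at an unadjusted p under 0.05. The summed level of all 35 was 1334, 1269, 1295 and 1111 CPM in controls against 1691, 1966, 1989, 1680.4 and 1449 CPM in knockouts, without overlap. Mdm2, the ubiquitin ligase of p53 itself, overlapped between groups and ran from 53.9 to 66.7 CPM in controls and from 37.6 to 116 CPM in knockouts. Psrc1, a spindle protein gene and p53 target, had 0 counts in all 4 controls and 913 over the knockouts, which lay at 5.13, 0.0259, 6.15, 2.62 and 9.09 CPM (adjusted p = 0.25). Psrc1 passed the filter on low counts only through the knockouts, so it adds nothing to a statement about the group.

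Of 69 tested genes of the cell cycle, Stmn1 and Racgap1, both of the G2 and M phases, were called higher in knockouts. Pbk, of the same phases, also passed but is set aside for the reason given below. None of 31 genes of the S phase was called. Stmn1, which destabilises microtubules, had 10.001, 16.5, 17.3 and 14.1 CPM in controls against 37.3, 65.5, 59.7, 59.5 and 44.7 CPM in knockouts (log2 difference 1.88, SE 0.25, edgeR adjusted p = 0.0304). Racgap1, a regulator of cytokinesis, had 4.43, 5.16, 4.76 and 3.39 CPM in controls against 19.6, 33.1, 37.9, 24.8 and 22.5 CPM in knockouts (2.64, SE 0.31, adjusted p = 0.0181). Pbk, which encodes a kinase of mitosis, had a single read in the controls together, and in knockouts 10.9, 18.9, 9.44, 20.1 and 5.18 CPM (adjusted p = 0.0114). It passed the filter on low counts only through the knockouts, so its call adds nothing to a statement about the group. In neither Stmn1 nor Racgap1 did a control reach the lowest knockout.

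Most other genes of the cycle were too weak to be well covered, with 10 of 72 listed, and varied strongly between knockout libraries. Plk1, the central mitotic kinase, had 10.6, 21.5, 4.33, 20.1 and 0.100 CPM in knockouts and at most 0.205 CPM in controls (adjusted p = 0.317). Kif2c, a microtubule depolymerase, had 8.37, 40.4, 2.17, 19.5 and 8.49 CPM in knockouts and 4 reads over the controls (adjusted p = 0.0724). Chaf1a, of the complex that loads histones onto new DNA, had no read in any control and 5.16, 0, 12.2, 15.4 and 10.46 CPM in knockouts. Like Pbk, Plk1, Kif2c and Chaf1a passed the filter on low counts only through the knockouts and add nothing to a statement about the group. Which knockout was highest thus differed from gene to gene, and single members were at 0 in single knockouts.

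Summed over all listed members, whether they passed the filter or not, the levels were more even. The 40 genes of the G2 and M phases summed to 119.9, 169, 139.7 and 157 CPM in controls against 349.5, 573, 486, 468 and 378 CPM. The 32 genes of the S phase summed to 462, 533, 452 and 455 CPM in controls against 769, 896, 838, 976 and 903 CPM in knockouts. The sums were 3.09 and 1.84 times higher in knockouts by their means, and neither overlapped. In the S phase list the members of the replicative helicase stood out: Mcm7 ran from 11.1 to 30.3 CPM in controls and from 31.8 to 78.5 CPM in knockouts, and Mcm3, Mcm5 and Mcm6 had log2 changes of 0.64, 1.42 and 1.25, all 4 without passing the test (adjusted p from 0.438 to 0.496). Rrm2, a subunit of the enzyme that makes deoxyribonucleotides, had at most 0.667 CPM in controls against 10.7, 9.17, 32.2, 29.5 and 35.6 CPM in knockouts (adjusted p = 0.22). Rrm2 was chosen after its values were seen and was close to 0 in controls, so it is given as values only. In all, 6 of the 10 well-covered members were higher at an unadjusted p under 0.05 and none was lower.

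Genes of the G2 and M phases share elements in their promoters, which are shown because the summed level of these genes did not overlap between groups. Many carry CCAAT boxes, bound by the factor NF-Y, and the letters TTTGAA of the cell cycle homology region, bound by the DREAM and MuvB complexes. Searched on both strands from 250 bases before to 50 after the start (RefSeq, GRCm38.p6), TTTGAA was present in 24 of the 30 G2 and M phase genes with a promoter in the table and in 14.7% of 9756 expressed genes. CCAAT was present in 23 of the 30 and in 43.2%. The 150 bases before the start are shown for Top2a (chr11:99024190-99024339, minus strand) and Prc1 (chr7:80294326-80294475, plus strand), with both motifs, on either strand, in capitals.
Top2a: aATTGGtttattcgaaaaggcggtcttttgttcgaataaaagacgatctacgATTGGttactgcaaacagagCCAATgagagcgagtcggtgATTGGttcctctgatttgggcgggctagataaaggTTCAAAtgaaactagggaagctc
Prc1: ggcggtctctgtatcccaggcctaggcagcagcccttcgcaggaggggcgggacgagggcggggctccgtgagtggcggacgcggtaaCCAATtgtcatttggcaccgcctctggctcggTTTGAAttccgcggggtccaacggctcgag
The Top2a window holds 4 CCAAT boxes, of which 3 read ATTGG on this strand, and TTCAAA 23 bases before the start. The Prc1 window holds 1 of each, 62 and 30 bases before the start. Top2a, the topoisomerase that untangles chromosomes, had 3.25, 12.1, 5.00 and 5.59 CPM in controls against 33.6, 16.1, 46.7, 34.4 and 17.8 CPM in knockouts, without overlap (log2 difference 2.19, SE 0.49, adjusted p = 0.236). Prc1, which bundles the microtubules of the spindle midzone, had 1.16, 2.81, 0.571 and 10.6 CPM in controls against 14.8, 5.75, 27.3, 11.7 and 7.23 CPM in knockouts, where control 4 lay above 2 knockouts (adjusted p = 0.89). A match describes these letters only and shows neither a bound factor nor a cause.

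Among clock genes, the repressor Cry2 was higher and the REV-ERB gene Nr1d2 lower in every knockout than in any control. Cry2 was not typical of its list: of 10 tested clock activators and repressors 4 were positive and 6 negative, with a median log2 change of -0.03 and no call. Their sums overlapped, at 136 to 235 CPM in controls against 196 to 289 CPM in knockouts. Cry2 (chromosome 2, 92403646 to 92434043) had 18.9, 26.8, 32.8 and 31.9 CPM in controls against 54.3, 87.4, 95.2, 67.9 and 57.0 CPM in knockouts (log2 difference 1.39, SE 0.24). It passed when well-covered genes were fitted alone (edgeR adjusted p = 0.036) and not among all expressed genes (0.0872). Nr1d2 (chromosome 14, 18204054 to 18239127) had 37.4, 64.4, 75.3 and 57.3 CPM in controls against 7.76, 15.7, 0, 4.40 and 10.2 CPM in knockouts. Its fitted log2 change of -2.94 had an SE of 1.02 and did not pass (adjusted p = 0.662), while in the authors' deposited table it was past the threshold (adjusted p = 0.048).

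No output of the clock, Nr1d2 included, was called in the edgeR test. None of the 7 well-covered members of this list of 12 (REV-ERB, ROR and PAR bZIP genes and their partners) had a positive change, and their median was -0.34 against 0.05 over all well-covered genes. Nr1d2 and Por were lower at an unadjusted p under 0.05. Over the 11 members tested the median was also -0.34, and it was -0.04 with the border macrophage covariate described below, under which Nr1d2 had a log2 change of -2.56 (adjusted p = 0.9997). Nfil3, a repressor that competes with the PAR bZIP factors, stood the other way below 30 CPM, at 2.73 to 7.63 CPM in controls and 6.77 to 34.8 CPM in knockouts (adjusted p = 0.552). Nr1d1, the other REV-ERB gene, ran from 32.2 to 53.8 CPM in controls and from 13.3 to 45.4 CPM in knockouts. Tef, a PAR bZIP factor gene, ran from 75.1 to 119 CPM in controls and had 43.4, 2.57, 76.8, 56.4 and 65.5 CPM in knockouts, knockout 2 being far below the others. Por, the reductase that serves cytochrome P450 enzymes, ran from 174 to 217 and from 133 to 179 CPM. None of the 3 passed, and the summed level of the list overlapped between groups, at 608 to 812 CPM in controls against 478 to 677 CPM in knockouts.

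Promoters of a pair of clock genes are shown for the E-box CACGTG, a palindrome that reads the same on both strands. It was present in 4 of 8 clock activators and repressors with a promoter in the table, in 1 of 10 clock outputs and in 11.8% of the 9756 expressed genes. The 150 bases before the start are given for Ciart, a repressor of the clock (chr3:95882229-95882378, minus strand), and Tef (chr15:81802523-81802672, plus strand), with the E-boxes in capitals.
Ciart: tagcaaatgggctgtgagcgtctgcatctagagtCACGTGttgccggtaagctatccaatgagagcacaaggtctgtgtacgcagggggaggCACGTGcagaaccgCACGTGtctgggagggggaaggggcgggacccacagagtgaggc
Tef: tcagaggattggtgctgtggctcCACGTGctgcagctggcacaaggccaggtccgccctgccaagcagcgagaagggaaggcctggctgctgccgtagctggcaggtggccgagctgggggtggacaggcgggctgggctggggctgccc
Ciart holds 3 E-boxes, 116, 58 and 44 bases before its start, and Tef 1, at 127 bases. Ciart was almost silent, with 0 to 3.80 CPM in controls against 0 to 5.66 CPM in knockouts, so its change could not be measured at this depth. Over all expressed genes, those with the E-box had a median log2 change of 0.05 and those without one of 0.04. The windows of Cry2 and Nr1d2 in the table do not hold these letters.

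Genes of the homeostatic microglial state moved in both directions. Csf1r had 17507, 19821, 20006 and 17473 CPM in controls against 14946, 14113, 16646, 16253 and 14620.3 CPM in knockouts. No knockout reached the lowest control (log2 difference -0.29, SE 0.06), and Csf1r passed when well-covered genes were fitted alone (edgeR adjusted p = 0.0276) but not among all expressed genes (0.236). Olfml3, a secreted glycoprotein typical of microglia, stood the other way, with 2679, 2578, 2491 and 2502 CPM in controls against 3597, 3538, 4063, 3923 and 3109 CPM in knockouts (0.51, SE 0.08; adjusted p = 0.00916 in the fit to well-covered genes and 0.054 among all). Sparc, a matrix protein gene, ran from 4853 to 5411 CPM in controls and from 5845 to 7368 CPM in knockouts, without overlap (adjusted p = 0.262).

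Of the 26 homeostatic genes, all well covered, 16 had negative changes and the median was -0.08. With Cx3cr1 and Csf1r lower and Olfml3 and Sparc higher, 4 did not overlap between groups. The transcription factors of the microglial lineage had no call among 22 tested: 6 of 19 well-covered members were positive with a median of -0.14, and Mef2a and Fli1, the 2 at an unadjusted p under 0.05, had log2 changes of -0.29 and -0.35 (adjusted p = 0.777 and 0.80). TGF-beta signalling genes, which maintain the homeostatic state, had a median of -0.13 over 15 well-covered members and no call.

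Among complement genes C1qc was called, higher in knockouts. It encodes 1 of the 3 chains of C1q, the recognition protein that starts the classical cascade, whose genes lie side by side on chromosome 4 (136880129 to 136898803). C1qc had 6617, 6638, 6784 and 6086 CPM in controls against 9156, 9007, 8385, 9471 and 8246 CPM in knockouts (log2 difference 0.44, SE 0.05, edgeR adjusted p = 0.0181). C1qa ran from 4340 to 4660 CPM in controls and from 5170 to 6202 CPM in knockouts, and C1qb from 6399 to 7480 and from 7817 to 9059 CPM. The chains thus differed by similar amounts, 0.36 for C1qa and 0.31 for C1qb on the log2 scale, and only C1qc passed (adjusted p = 0.0714 and 0.128 for the others).

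C5ar1, a receptor for the fragment C5a, was the fourth well-covered complement gene without overlap, at 483 to 569 CPM in controls against 572 to 770 CPM in knockouts (adjusted p = 0.649). Of the 12 well-covered members of 20 listed, 8 were positive and 4 negative, with a median of 0.19. The lowest was C5ar2, another C5a receptor, at 66.4 to 103 CPM in controls and 47.1 to 72.6 CPM in knockouts (-0.47, unadjusted p = 0.0352, adjusted p = 0.791). The summed level of the list was 22808, 21887, 22724 and 20699 CPM in controls against 28158, 27312, 26483, 28851 and 25868 CPM in knockouts, without overlap and 1.24 times higher by the means. Most of that sum is C1q.

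Genes of the state that microglia take on near plaques and dying cells, called disease-associated, leaned upwards together. Of 24 well-covered members of 30 listed, 23 were positive with a median of 0.26. At an unadjusted p under 0.05, 12 were higher, 7 of the 24 did not overlap, and none passed among all expressed genes. Axl, a receptor kinase for dying cells, had 563, 455, 583 and 402 CPM in controls against 781, 807, 866, 1014 and 722 CPM in knockouts (log2 difference 0.74, SE 0.14), and passed when well-covered genes were fitted alone (edgeR adjusted p = 0.0187). Cst7, an inhibitor of lysosomal proteases, had 25.8, 11.5, 15.0 and 18.4 CPM in controls against 52.9, 52.8, 54.3, 67.0 and 31.99 CPM in knockouts (1.55, adjusted p = 0.12 among all genes and 0.0609 among well-covered ones).

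Lipoprotein lipase Lpl ran from 13.3 to 47.3 CPM in controls and from 57.0 to 100.2 CPM in knockouts, and Cybb, a subunit of the phagocyte oxidase, from 72.9 to 119.7 and from 141 to 235 CPM. Neither overlapped and neither passed (adjusted p = 0.415 and 0.286). The summed level of the 30 genes was 41418, 35593, 34776 and 31468 CPM in controls against 42843, 43718, 41926, 42606 and 42974 CPM in knockouts. The sum did not overlap, but control 1 came close to the lowest knockout, and the knockouts were much closer to each other than the controls were.

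Lysosomal genes showed small differences in the same direction. Of 47 well-covered members of 50 listed, 36 were positive with a median of 0.12, 13 were higher at an unadjusted p under 0.05 and none was lower. Man2b1, a mannosidase, ran from 3005 to 3204 CPM in controls and from 3435 to 4013 CPM in knockouts, and Naglu, which degrades heparan sulfate, from 253 to 319 and from 340.4 to 444 CPM. The proteases Ctsd and Ctsz had log2 changes of 0.19 and 0.28. None of the 4 overlapped between groups and none passed (adjusted p from 0.208 to 0.296).

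**Figure D3:**
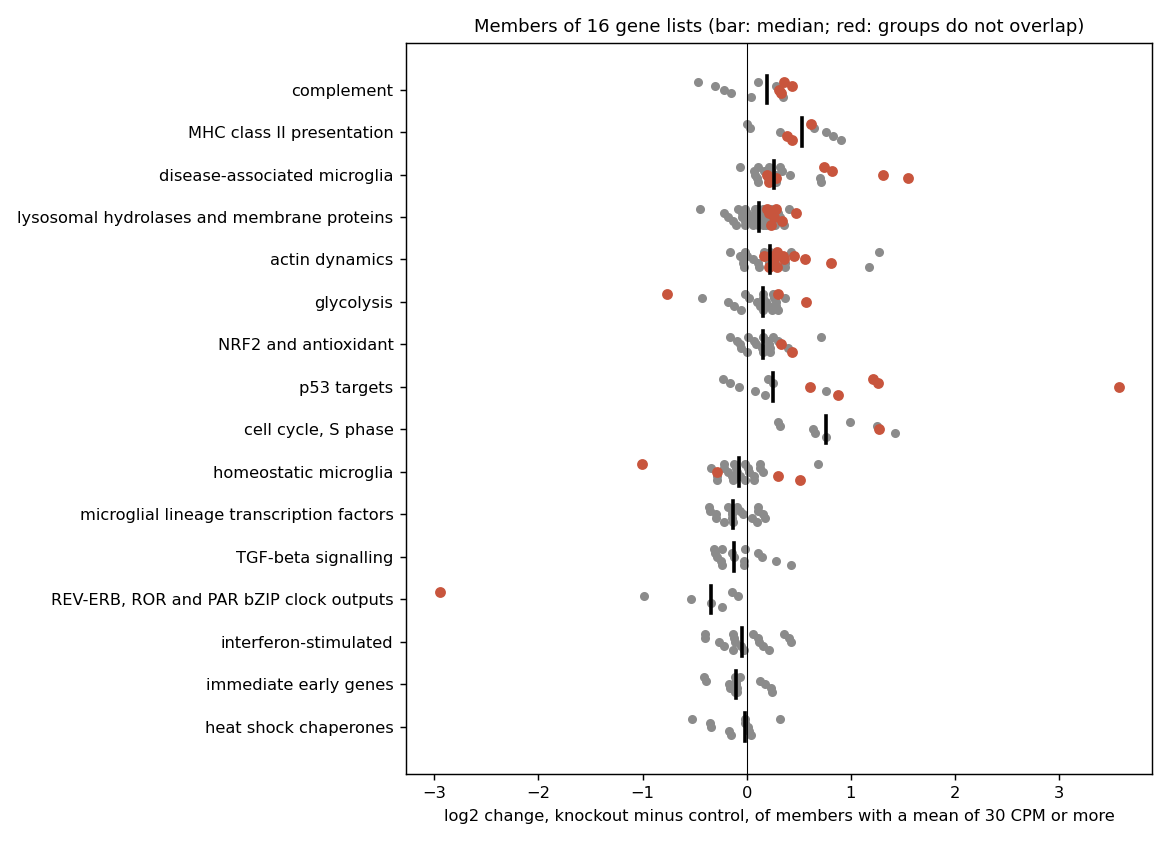
Log2 change, knockout minus control, of each well-covered member of 16 gene lists; black bars are medians and red points are genes whose groups do not overlap. Members of the disease-associated and actin lists lie mostly right of 0, with medians of 0.26 and 0.22, and Nr1d2 is the point at -2.94.

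Among genes of antigen presentation on MHC class II, H2-DMa was called. The chains that display the peptide had log2 changes of similar size but a wider spread, and did not pass. H2-DMa, which loads peptides, had 330.4, 296, 325 and 368 CPM in controls against 531, 526, 487, 517 and 468.5 CPM in knockouts (log2 difference 0.62, SE 0.08, edgeR adjusted p = 0.0306). Its partner H2-DMb1 ran from 112 to 159 CPM in controls and from 171 to 205 CPM in knockouts, also without overlap (adjusted p = 0.41). H2-Ab1, a chain that displays the peptide, had 400.0, 322, 171 and 202 CPM in controls against 434, 467, 572, 346 and 500.0 CPM in knockouts, so that control 1 reached into the knockouts (0.76, adjusted p = 0.625). H2-Aa behaved in the same way, with 159, 126, 57.6 and 72.4 CPM in controls against 187, 198, 248, 99.1 and 189 CPM in knockouts (0.83, adjusted p = 0.80), and so did Cd74, the invariant chain, with 1127, 807, 388 and 391 CPM in controls against 972, 956, 1553, 722 and 1088 CPM in knockouts. Of the 10 well-covered genes of this pathway 9 were positive with a median of 0.53, 3 did not overlap and 1 was called.

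These display genes varied between libraries along with markers of border macrophages, the macrophages of the vessels and meninges, which carry CD11b and are rich in class II. Mrc1, the mannose receptor that defines them, had 149.9, 89.1, 0.786 and 9.03 CPM in controls against 98.9, 159, 179, 39.2 and 165 CPM in knockouts. F13a1, another such marker, had 184, 99.5, 8.76 and 28.4 CPM in controls against 95.2, 80.1, 259, 93.2 and 129 CPM in knockouts. Both were lowest in controls 3 and 4, as were H2-Aa, H2-Ab1 and Cd74, and among knockouts both H2-Aa and Mrc1 were lowest in number 4. The lipid carrier Apoe, made by microglia, border macrophages and glia, was also lowest in controls 3 and 4 and in knockout 4. It had 6265, 2644, 1140 and 1251 CPM in controls against 4948, 4304, 5125, 3321 and 5468 CPM in knockouts. The order of the other knockouts differed between these genes.

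H2-DMa was not low in the same controls: controls 3 and 4, with the least Mrc1, held 325 and 368 CPM of H2-DMa, and control 1, with the most, 330.4 CPM. With the mean level of all 17 border macrophage markers in the fit as a covariate, the log2 change of H2-DMa was 0.66, while those of H2-Aa, Cd74 and Apoe were 0.35, 0.15 and 0.18 against 0.83, 0.64 and 0.71 without it. The covariate, chosen after these values were seen, left 4 calls: Esr1, Cdkn1a, Phlda3 and Cx3cr1. The summed level of its markers was itself 1.46 times higher in knockouts by the means, so this fit cannot tell these cells apart from the genotype. Log2 changes of the other calls moved little, to 0.46 for C1qc, 0.45 for Cfl1, 0.61 for Ftl1, 2.14 for Stmn1 and 2.63 for Racgap1, but neither these 5 nor H2-DMa passed (adjusted p from 0.0981 to 0.165).

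**Figure D4:**
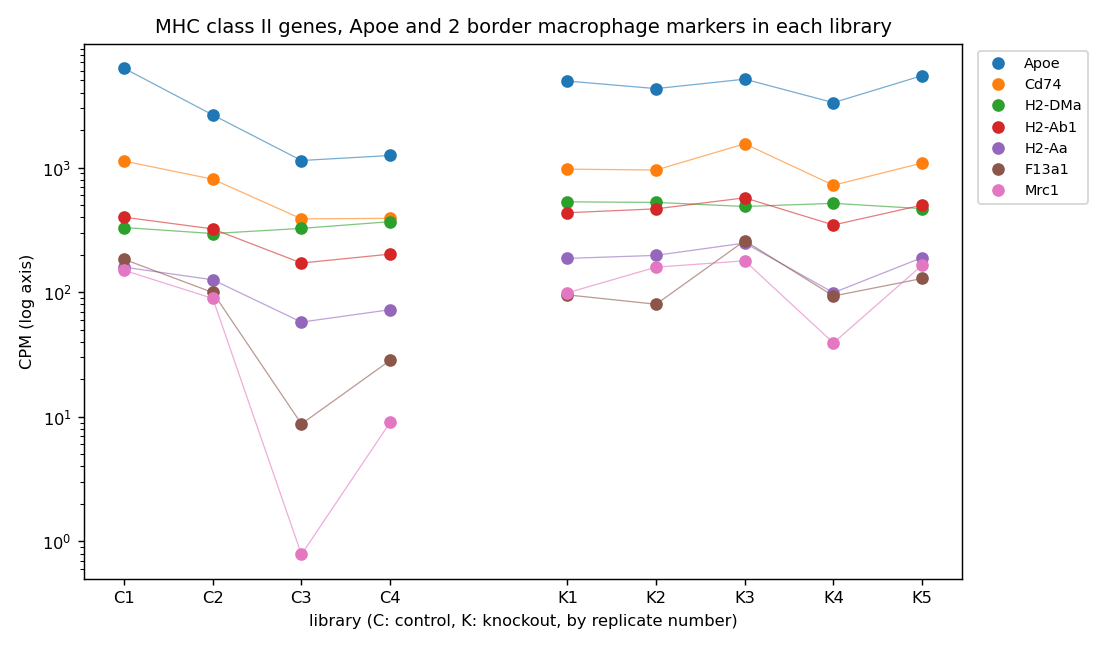
CPM on a log axis of 4 MHC class II genes, Apoe and the border macrophage markers Mrc1 and F13a1 in control (C1 to C4) and knockout (K1 to K5) libraries; thin lines only join the points of a gene. Mrc1, F13a1, Apoe, Cd74, H2-Ab1 and H2-Aa are low in C3 and C4, and H2-DMa is not.

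Over the whole list of 17 border macrophage markers, the sum was 1713, 1132, 819 and 771 CPM in controls against 1603, 1478, 2139.6, 1259 and 1588 CPM in knockouts. All 6 well-covered markers were positive with a median log2 change of 0.56. None was called, and the groups overlapped. Gas6, a ligand of AXL and the most abundant of the list together with Stab1, ran from 326 to 607 CPM in controls and from 502 to 676 CPM in knockouts. Cd163, a scavenger receptor gene, and Siglec1 were at 0 in controls 3 and 4 and at 4.57 to 63.1 and 10.9 to 83.4 CPM in knockouts. The levels of both genes in the other controls, whose marker sums were 1713 and 1132 CPM, are not given here. The part of these cells in the differences described here was examined only with the covariate above, which cannot tell it apart from the genotype.

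Markers of other myeloid cells were low. The 17 monocyte markers summed to 132 to 213 CPM in controls against 133 to 409.7 CPM in knockouts, 1.48 times higher by the means with overlap. Of the 16 that passed the filter 14 were positive with a median log2 change of 0.63, and none was called. Their part in the differences between groups was not tested. The defining gene Ccr2 reached at most 23.2 and 28.3 CPM. Of the 18 granulocyte and mast cell markers, which summed to 434 to 580 CPM and 336 to 545 CPM, most was the receptor gene Csf3r, at 432 to 470.3 CPM in controls against 336 to 526 CPM in knockouts. The granule genes S100a8 and S100a9 were at 18.3 and 16.3 CPM in control 2, at 14.5 and 16.5 CPM in control 3 and at most 2.94 CPM in the other 7 libraries. Dendritic cell markers summed to 1719.9 to 1989 and 1588 to 1816 CPM, of which Siglech, a gene that microglia also express, made up most. Lymphocyte markers summed to 30.7 to 100.3 and 51.5 to 81.6 CPM, with Cd79b at 19.8 to 42.7 and 34.4 to 49.1 CPM. None of these genes was called in any direction.

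RNA of retinal neurons and glia was present in every library. Rod markers summed to 9879.8 to 14624 CPM in controls against 7218 to 16012 CPM in knockouts, with knockouts 1 and 2 at the top and knockout 4 at the bottom. Cone markers summed to 229 to 474 and 279 to 652 CPM. The groups overlapped for both, and for markers of inner retinal neurons, Müller glia and vessels, with no call. Müller glia and astrocyte markers summed to 7052, 3454, 2002 and 2666 CPM in controls 1 to 4 against 4071 to 6181 CPM in knockouts, 1.44 times higher by the means. Only control 1 reached the knockouts. Of the 16 members tested 7 were positive and 9 negative, with a median log2 change of -0.07. The part of these retinal cells in the differences between groups was not tested.

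**Figure D5:**
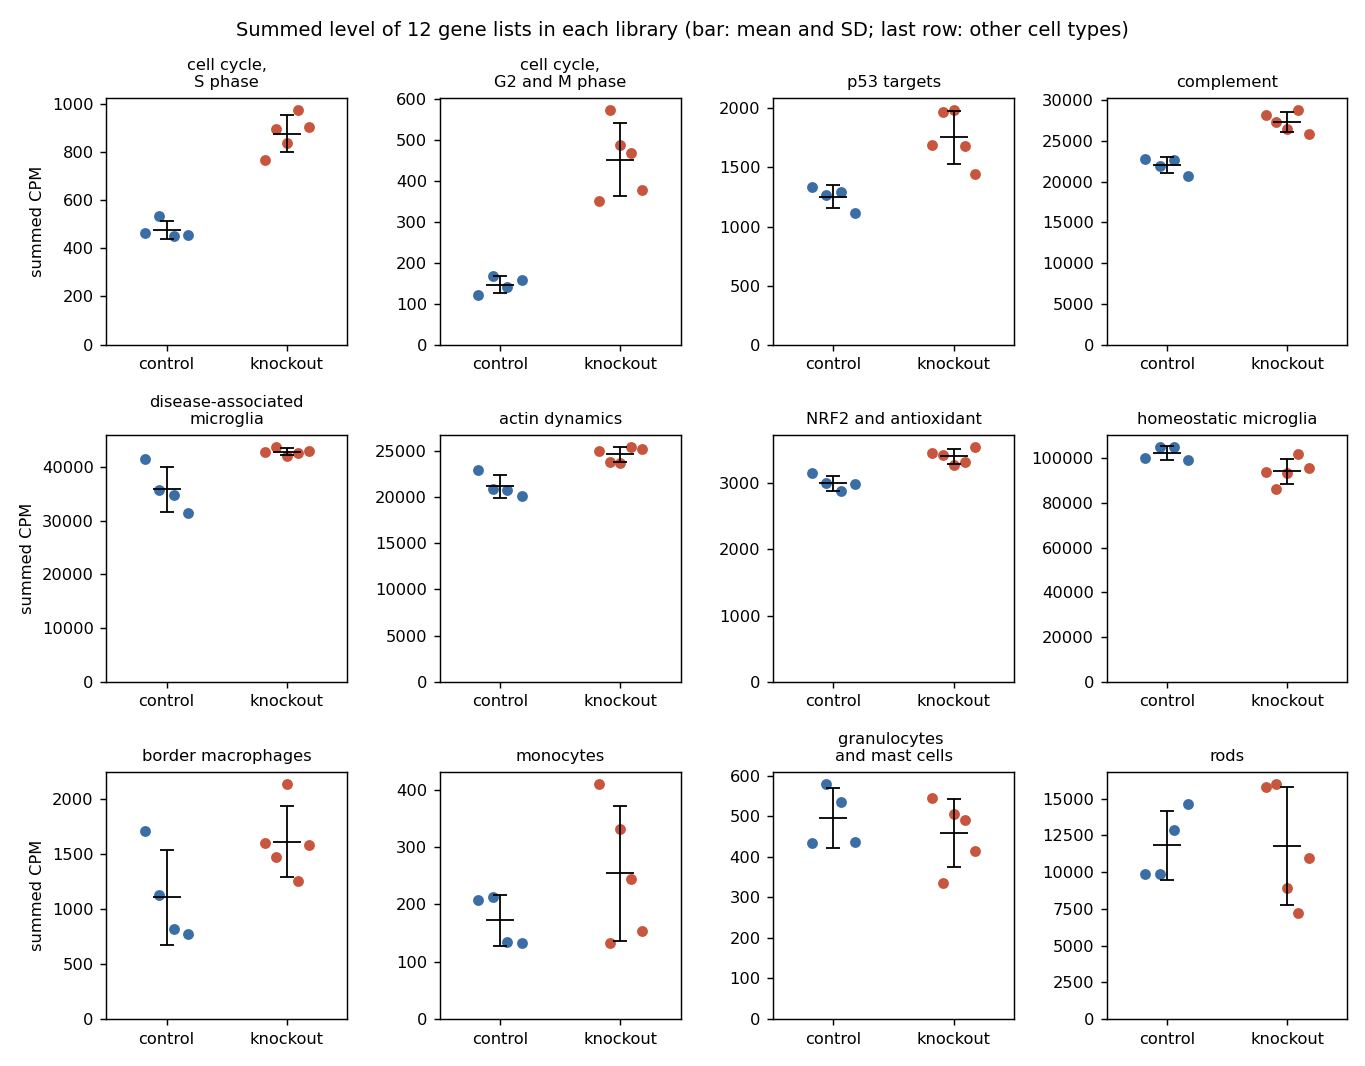
Summed CPM of all members of 12 gene lists in each library, with 4 control and 5 knockout points and the mean and SD as bars; axes start at 0. The sums of the first 7 lists do not overlap between groups, those of the homeostatic list and of the 4 other cell types in the last row do.

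Genes of the actin cytoskeleton showed many small differences in one direction. All 31 listed were well covered, 25 were positive with a median of 0.22, 17 were higher at an unadjusted p under 0.05, 11 did not overlap and none was lower at that p. Cfl1, which severs actin filaments, had 1131, 1121, 1048 and 1075 CPM in controls against 1496, 1583, 1404, 1569 and 1428 CPM in knockouts (log2 difference 0.45, SE 0.06, edgeR adjusted p = 0.0266). Actg1, the cytoplasmic gamma actin, ran from 243 to 307 CPM in controls and from 366 to 446 CPM in knockouts. Capg, which caps filament ends, ran from 119.7 to 162 and from 178 to 303 CPM, and Arpc4, of the complex that branches filaments, from 347 to 382 and from 437 to 523 CPM. The 3 did not overlap and did not pass (adjusted p = 0.0891, 0.238 and 0.22).

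Iron and redox genes included 1 call, the ferritin light chain Ftl1. It had 883, 819.6, 799 and 725 CPM in controls against 1188, 1359.9, 1286, 1280.2 and 1168 CPM in knockouts (log2 difference 0.64, SE 0.08, edgeR adjusted p = 0.0181). The heavy chain Fth1 overlapped, with 5010 CPM in control 1, 3917 to 4056 CPM in the other controls and 4423 to 5533 CPM in knockouts. Aco1, the cytosolic aconitase that doubles as an iron sensor, stood lower, at 89.0 to 124 CPM in controls against 63.0 to 92.2 CPM in knockouts (-0.50, adjusted p = 0.548). Ftl1, Cfl1, Actg1, Gapdh and ribosomal protein genes have near-identical processed copies in the genome, and how shared reads were assigned is not given in the sources used here, so their counts are uncertain to that extent.

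Genes induced by the oxidative stress factor NRF2 and other antioxidant genes summed to 3147, 2995, 2875 and 2985 CPM in controls against 3455, 3427, 3279, 3317 and 3549 CPM in knockouts, without overlap and 1.13 times higher by the means. Of 21 well-covered members 17 were positive with a median of 0.15, and none passed. Prdx5, a peroxiredoxin, ran from 189.7 to 205 CPM in controls and from 237 to 323 CPM in knockouts (adjusted p = 0.281), and Gpx1, a glutathione peroxidase, had a log2 change of 0.39 with overlap. Akr1a1, an aldehyde reductase outside that list, was among the 12 higher well-covered genes with the smallest p, at 603 to 628 CPM in controls against 761 to 891 CPM in knockouts (adjusted p = 0.0551).

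No glycolytic gene was called among all expressed genes. Of 23 well-covered members 17 were positive and 6 negative with a median of 0.16, and 4 were higher and 1 lower at an unadjusted p under 0.05. Gapdh had 812, 829.2, 1023 and 1016 CPM in controls against 1524, 1473, 1272, 1366 and 1189 CPM in knockouts (log2 difference 0.57, SE 0.10), and passed when well-covered genes were fitted alone (edgeR adjusted p = 0.0359). Ldhb, a lactate dehydrogenase subunit, ran from 522 to 584 CPM in controls and from 619.5 to 761 CPM in knockouts (adjusted p = 0.338). Pfkfb3, which makes the activator of phosphofructokinase, ran from 231 to 306 CPM in controls and from 85.9 to 205 CPM in knockouts (-0.77, adjusted p = 0.544).

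Respiratory chain genes differed less. Of 31 well-covered nuclear genes of oxidative phosphorylation 22 were positive with a median log2 change of 0.08 and no call, and Sdha, of complex II, was lower in every knockout, at 327 to 443 CPM against 451 to 477 CPM (adjusted p = 0.612). Of 8 well-covered mitochondrially encoded genes 6 were positive with a median of 0.17, and mt-Nd1, of complex I, ran from 346 to 506 CPM in controls and from 446 to 629 CPM in knockouts.

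The stress and inflammation lists had no call. Interferon-stimulated genes had a median of -0.04 over 18 well-covered members, inflammatory cytokine, chemokine and NF-kB genes 0.01 over 15, Toll-like receptor genes 0.06 over 14, immediate early genes -0.10 over 15 and heat shock chaperones -0.02 over 11. Across these 5 lists only the chemokine gene Cxcl16 did not overlap between groups, at 100.5 to 137 CPM in controls against 143 to 189 CPM in knockouts (adjusted p = 0.419). Cd14, the lipopolysaccharide co-receptor, had a log2 change of -0.24 and the membrane tether Bst2 of 0.41, both with overlap (adjusted p = 0.752 and 0.777). Unfolded protein response genes had a median of 0.10 over 21 members, with Sdf2l1, an endoplasmic reticulum co-chaperone, at 147 to 229 CPM in controls against 244 to 283 CPM in knockouts (adjusted p = 0.32).

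Several well-covered genes outside these programs were as distinct as those within them. Fxyd5, a regulator of the sodium pump, had 52.4, 54.3, 50.8 and 49.3 CPM in controls against 108, 94.96, 109.5, 114 and 98.8 CPM in knockouts (log2 difference 1.02, SE 0.11, edgeR adjusted p = 0.0114). The inhibitory myeloid receptor gene Pilra ran from 51.9 to 75.8 CPM in controls and from 117 to 149.8 CPM in knockouts, and Htra3, a serine protease, from 127 to 161 and from 206 to 354 CPM. Ak1, an adenylate kinase, ran from 105 to 129.5 and from 183 to 309 CPM, and Cyp4f18, a cytochrome P450 of lipid mediators, from 27.1 to 49.2 and from 69.4 to 116 CPM. The last 4 passed when well-covered genes were fitted alone (adjusted p = 0.0446, 0.00916, 0.00916 and 0.0187) and not among all expressed genes.

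Few well-covered genes were called lower. Dnajc13, an endosomal co-chaperone, had 120.3, 113, 98.4 and 135 CPM in controls against 51.1, 63.3, 63.0, 78.4 and 59.2 CPM in knockouts (log2 difference -0.89, SE 0.15), and Abca9, a member of a family of lipid transporters, had 772, 862, 784 and 700.2 CPM in controls against 492, 565, 621, 594 and 472 CPM in knockouts (-0.51, SE 0.10). Both passed when well-covered genes were fitted alone (edgeR adjusted p = 0.0426 and 0.0187) and not among all expressed genes (0.0724 and 0.152).

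The other genes among the 12 lower well-covered ones with the smallest p had log2 changes between -0.94 and -0.71, and none of them overlapped between groups or passed in either fit. They were Fndc3a, the centrosomal gene Cep170, Cxxc1, whose product guides histone methylation to CpG islands, the catenin-related Ctnnal1, Ankrd44, Tnip2, an inhibitor of NF-kB, and the predicted genes Gm15459 and Gm10790. Ankrd44 came nearest, with 131 to 179 CPM in controls against 78.7 to 115 CPM in knockouts (adjusted p = 0.0555 among well-covered genes). Fndc3a was nearly constant in knockouts, at 41.7 to 44.1 CPM, and spread from 49.2 to 113 CPM in controls.

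Among genes with a mean under 30 CPM, 8 were called, and 6 of these had 2 reads or fewer over one of the groups. Sorbs3, a cell adhesion adaptor gene, had 24.4, 10.3, 14.4, 9.78 and 11.7 CPM in knockouts and 2 reads over the controls. The macrophage elastase gene Mmp12 had 9.07, 8.06, 2.99, 4.76 and 1.55 CPM in knockouts and 1 read over the controls. Vipr2, a receptor for vasoactive intestinal peptide, had 5.39, 8.62, 5.36 and 15.4 CPM in controls against 2 reads over the knockouts. In all 3 the group that expressed the gene did so in every library, which a filter by group favours. Their ratios rest on 1 or 2 reads: 1165 for Sorbs3 (95% counting interval 322 to 9627), 859 for Mmp12 (154 to 33951) and 849 lower for Vipr2 (235 to 7015). Sorbs3, Mmp12, Vipr2, Pbk, Olfr462 and the predicted gene Gm2102 passed the filter on low counts only through the group where they were higher. Their calls are set aside and add nothing to a statement about either group. The olfactory receptor gene Olfr462 had 99 reads over the knockouts and none over the controls, with a lower limit of 22.0-fold by the same counting interval. Amplified reads are not independent molecules, and such intervals and bounds hold for counting error alone.

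The calls differed in how much they rested on single libraries. Pbk, Sorbs3, Mmp12, Vipr2, Olfr462 and Gm2102, whose calls are set aside above, are listed for completeness. Esr1, Cdkn1a, Phlda3 and Cx3cr1 passed in each of 9 fits with 1 library removed, Ftl1 and Sorbs3 in 6, Fxyd5, Pbk, Racgap1 and the predicted gene Gm2102 in 5, C1qc and Olfr462 in 4, Cfl1 and Stmn1 in 2, H2-DMa and Mmp12 in 1 and Vipr2 in 0. Without knockouts 2 and 3, the libraries that stood apart, the calls were these same 4 genes, while the log2 changes of C1qc, Cfl1, H2-DMa and Ftl1 were 0.46, 0.46, 0.62 and 0.59.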

How the data were processed

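RNA of sorted microglia, 1 to 2 ng per library, was amplified with a SMARTer Ultra Low kit and read from both ends on a NovaSeq X Plus, per the labels' protocols. The authors deposited raw counts per gene. DRAGEN, STAR 2.7.9a, Subread, featureCounts, edgeR, limma and GRCm38 are named, without roles, in the submitters' processing notes; whether counting used strand is not given in the sources used here. The authors also deposited a table of this comparison with log2 fold changes and adjusted p-values, per the file headers, of which only the adjusted p and calls are quoted. Of 55774 lines, 287 repeated an identifier with identical counts, and 55227 of 55487 identifiers were in GENCODE M21. No sample column was unused.

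Genes were filtered with filterByExpr by group, TMM-scaled and compared over the 9 microglia libraries by edgeR 4.0.16 (R 4.3.3, quasi-likelihood), with a threshold of 0.05 on the Benjamini-Hochberg adjusted p. SE is the absolute log2 change over the root of F. CPM use TMM-scaled library sizes, and summed levels add all listed genes. The fit was tested on simulated data. Alternatives included limma 3.58.1 (voom) and DESeq2 1.42.0.

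Members, lists and tests were chosen with earlier results of these data known. Named were Arntl, 4 microglial markers, every call that is not a predicted gene, the 12 higher and 12 lower well-covered genes with the smallest p, up to 4 well-covered members of a list with the smallest p, members called in either fit, and the most abundant marker of other cell types. Not all of these are described. Mdm2, Psrc1, Plk1, Kif2c, Chaf1a, Rrm2, Top2a, Prc1, Nr1d1, Tef, Ciart, Nfil3, C5ar2, Cd74, Apoe, Mrc1, F13a1, Cd163, Siglec1, Ccr2, S100a8, S100a9, Ak1 and Cyp4f18 were named after their values were seen.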

Additional observations from a re-analysis of the deposited data

Results flagged for a closer look

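Values were compared within each group of 4 or 5 libraries for every gene and list followed, 310 groups in all, and 18 had 1 library far from the rest, 5.81% where chance gives about 1 in 20. Several were genes near 0: the control values of Pbk (0.0242 CPM in 1 library, 0 in the others), Sorbs3 (0.0513), Mmp12 (0.0238), Kif2c (0.0909) and Plk1 (0.205), and the knockout value of Vipr2 (0.0518). Control libraries also stood apart in Fth1 (5010 against 3917 to 4056 CPM), Csf3r (470.3 against 432 to 435 CPM) and the sum of S phase genes (533 against 452 to 462 CPM). Among knockouts, Gm15459 had 57.8 against 38.1 to 39.7 CPM, Sparc 7368 against 5845 to 6234 CPM, Aco1 92.2 against 63.0 to 68.5 CPM and F13a1 259 against 80.1 to 129 CPM.

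The MHC class II sum reached 15115 CPM in 1 knockout against 13355 to 13702 CPM in the others, and the interferon-stimulated sum 2002 against 1308 to 1478 CPM. In control 4, markers of cones (474 against 229 to 248 CPM), of bipolar, amacrine and ganglion cells (336 against 190.0 to 203 CPM) and of pigment cells and erythrocytes (87.1 against 4.29 to 7.39 CPM) were all highest.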

How the results depend on the processing

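The 17 calls among all expressed genes and the 9 among well-covered ones became 8 and 4 without a filter, 239 and 154 with DESeq2, and 5 and 4 with genes detected per library as a covariate. There were 26 calls with limma voom and 32 (11 higher, 21 lower, against 15 and 2) in a fit over all 18 libraries. Fitting well-covered genes alone gave 21. Replicate numbers did not pair the samples (correlations of deviations from -0.06 to 0.03), and with a replicate block 2 and 2 genes passed. Leaving out each library in turn gave 4 to 21 and 3 to 12 calls; without control 1, 2, 3 or 4 there were 5, 5, 4 and 5 among all genes. Of alternatives chosen after seeing the data, both Xist libraries left out, knockouts 2 and 3 left out and the border macrophage covariate each gave 4 and 3. Median-of-ratios size factors and the Y-linked covariate kept the number of calls within 1.5 times. Arntl stayed negative and did not pass under any alternative in which it was tested.

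Of 2196 values of the genes followed through the alternatives, 12 changed sign, in 5 genes, none of them called. Not every gene named above was followed, Mdm2, Nfil3, C5ar2 and Ciart being among those that were not. With the covariate of genes detected Itgam was -0.095, Nr1d1 0.11, Ccr2 0.26 and Csf3r -0.086. Ccr2 was 0.19 without knockouts 2 and 3, and F13a1 -0.052 with the border macrophage covariate. As a border macrophage marker F13a1 is part of that covariate, so its value there is not informative. Csf3r was -0.021 among well-covered genes, -0.060 without the Xist libraries, -0.053 with the border macrophage covariate and from -0.046 to -0.01 without knockout 1, 3 or 4. Of 44 lists, 24 kept the sign of their median in every alternative that gave one, among them those of complement, disease-associated genes, lysosomes, actin, p53 targets and both phases of the cell cycle; that of the interferon-stimulated list ran from -0.20 to 0.25. The causes were not tested. The median SE was 0.63 for genes under 30 CPM and 0.22 for the others.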
